A study of Mus musculus with 5 samples.

Results

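Epithelial cells with a high mitochondrial fraction were examined in dissociated mammary tumours of PyMT mice, a strain in which the polyoma middle T antigen gives rise to mammary carcinomas. A cell counted as epithelial when the keratin genes Krt8 and Krt18 and the adhesion gene Epcam together held at least 8 of every 10000 of its unique molecular identifiers (UMIs, each standing for 1 captured transcript). A cell belonged to the high-fraction group when at least 30% of its UMIs came from genes of the mitochondrial genome. By these rules 1406 of 12151 epithelial cells were members, out of 15958 cells in 5 libraries. They were set against the 4955 epithelial cells with under 10% mitochondrial UMIs of the same libraries, and mitochondrial genes were left out of all totals below unless stated.

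The study compared single-cell platforms on this tumour. In 3 libraries cells went through the droplet-based 10x 3' v2 assay: fresh 10x 1 and fresh 10x 2 came from freshly digested tumour, and stored 10x from a digest kept overnight at 4 °C, titled 24 h, which was made to resemble a low-quality sample. In the other 2, BD 1 and BD 2, cells went through the microwell-based BD Rhapsody whole-transcriptome assay; BD 1 is labelled fresh, whereas BD 2 is titled fresh but its files carry the stored label, so it was used only as a BD Rhapsody library. All digests were enriched for viable cells, and genotype, tissue and digestion were the same in every library. The labels do not say whether the libraries came from separate tumours or mice, so the p-values below measure the spread between libraries, which may be technical.

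Mitochondria transcribe their own small genome, and those transcripts stay inside the organelle, whereas most nuclear transcripts are exported to the cytoplasm. A high mitochondrial share is widely used to mark cells of low quality in single-cell data, since cytoplasmic RNA can leak from a damaged cell while organelles and nucleus are kept, but cells rich in mitochondria also have one. Long noncoding RNAs such as Malat1, Neat1 and Xist are held in the nucleus, and so are many mRNAs with retained introns.

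The members were chosen by their mitochondrial share and by Krt8, Krt18 and Epcam, so these values are a description only. The share of epithelial cells in the high-fraction group differed widely between libraries. It was 2.49% in fresh 10x 1 (36 cells, exact 95% binomial interval 1.75 to 3.43%) and 3.06% in fresh 10x 2 (45 cells, 2.24 to 4.07%). The stored 10x value was 7.23% (231 cells, 6.35 to 8.18%). BD 1 reached 13.4% (380 cells, 12.2 to 14.7%) and BD 2 22.3% (714 cells, 20.9 to 23.8%). Stored 10x exceeded the mean of the fresh 10x pair by 4.46 percentage points and BD 1 exceeded it by 10.6, against an SD of 0.404 within the fresh pair; stored 10x and BD 1 are 1 library each, and no test was run on the shares.

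The lowest total per cell kept in the deposited matrices also differed. It was 103, 102, 1029, 2577 and 1776 UMIs in fresh 10x 1, fresh 10x 2, stored 10x, BD 1 and BD 2. With 2577 total UMIs required everywhere, the shares became 1.40%, 1.84%, 3.57%, 13.4% and 21.4% in the same order, and the stored 10x excess over the fresh mean shrank to 1.94 points. That floor removed 134 of the 231 members of stored 10x. Cells below the epithelial gate reached 30% mitochondrial UMIs in 1.91%, 2.87%, 14.8%, 24.3% and 38.7% of cases, in the same order of libraries.

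The threshold fell in a continuous range of values. Between 28 and 30% lay 3, 8, 40, 58 and 134 epithelial cells, and between 30 and 32% lay 4, 8, 24, 56 and 85. The median mitochondrial share of the members was 36.6%, 36.2%, 43.0%, 40% and 41.7%. The median over all epithelial cells was 6.67%, 7.44% and 7.50% in the 10x libraries but 16% and 20.1% in BD 1 and BD 2, so that the cells under 10% were 88.6%, 75.1% and 68.6% of epithelial cells in the 10x libraries and a low tail of 9.53% and 3.22% in the BD Rhapsody libraries. Comparisons between platforms below carry that difference.

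The epithelial identity rested on the gate, and genes outside the gate were measured as a check on the summed members. The gate is a share of a cell's UMIs, so cells with low totals pass it on few UMIs. The lowest member held 444, 340, 146, 323 and 141 non-mitochondrial UMIs in fresh 10x 1, fresh 10x 2, stored 10x, BD 1 and BD 2. Sums over members cannot show that each member is epithelial. Among Krt7, Krt19, Cldn3, Cldn4, Cldn7 and Cdh1, which encode keratins and junction proteins of epithelia, none differed between members and cells under 10% in the fit over all 5 libraries (edgeR adjusted p from 0.087 for Cldn4 to 0.56 for Cldn7). Cdh1, which encodes E-cadherin, stood at 2.04, 1.04, 2.32, 2.59 and 2.44 UMIs per 10000 in members of fresh 10x 1, fresh 10x 2, stored 10x, BD 1 and BD 2, and at 0.886, 0.847, 1.02, 2.15 and 1.86 in cells under 10%. Elf5, a regulator of the luminal secretory lineage, stood at 3.73, 4.27, 3.09, 7.90 and 6.92 in members and 4.26, 4.56, 3.69, 6.54 and 6.84 in the others. The platforms differed here. In the 10x libraries alone Krt7 (−1.41, edgeR adjusted p = 0.00062), Krt19 (−0.76, adjusted p = 0.0090), Cldn3 (−0.74, adjusted p = 0.0045), Cldn7 (−0.74, adjusted p = 0.012) and Elf5 (−0.75, adjusted p = 0.0080) were lower in members. In the BD Rhapsody libraries alone none of these 5 passed as lower, and Cldn7 was higher (0.40, adjusted p = 0.0012). The interaction passed for Krt7, Cldn3, Cldn7 and Elf5 but not for Krt19 (adjusted p = 0.15). All of these transcripts were present in members of all 5 libraries.

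Markers of other cell types were mostly low but not absent, and fibroblast markers in members of fresh 10x 1 were not low. The 7 macrophage markers summed to between 0.312 and 2.57 UMIs per 10000 in members and between 0.310 and 1.30 in cells under 10%, and 0 of the 6 that could be tested differed. The 8 T and NK cell markers summed to at most 0.125 in members and were all at 0 in members of both fresh 10x libraries. The 7 endothelial markers summed to 0.509, 0, 0.601, 0.242 and 0.0742 in members, by library in the order above. In cells under 10% they summed to 0.205, 0.325, 0.151, 0.0602 and 0.0467. The 6 mural markers summed to between 0.312 and 2.21 in members and between 0.425 and 0.518 in the others. Of the 3 mural markers that could be tested, 1 was higher. The 6 fibroblast markers stood out in fresh 10x 1, at 30.4 in members against 1.42 in cells under 10%. In those members 21 luminal and basal epithelial genes outside the gate summed to 29.4. In fresh 10x 2, stored 10x, BD 1 and BD 2 the fibroblast markers summed to 2.50, 10.7, 3.34 and 3.66 in members against 1.39, 4.68, 8.96 and 5.2. Fibroblast markers were thus higher in members of the 10x libraries and lower in those of BD Rhapsody. Haemoglobin genes summed to 5.14 in members of stored 10x and 0.507 in its cells under 10%, and to at most 0.833 in members of the other libraries. The part of these transcripts in the results below was not tested.

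Doublets were not called. Members had few UMIs, and only 0, 1, 1, 13 and 35 of them, in the order fresh 10x 1, fresh 10x 2, stored 10x, BD 1 and BD 2, exceeded the median total of the cells under 10% in their own library. No cell barcode was shared between members of different libraries, although BD 1 and BD 2 shared 24 cell numbers over all cells and the 10x libraries at most 5 a pair.

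Members carried far fewer nuclear-encoded transcripts, and about as many mitochondrial transcripts or more. Both numbers enter the rule that chose the cells, so they are given as a description without a test. Median non-mitochondrial UMIs per cell were 1258 in members against 12173 in cells under 10% in fresh 10x 1, 1726 against 13375 in fresh 10x 2, and 1303 against 12509 in stored 10x. They were 3746 against 16517 in BD 1 and 2808 against 12740 in BD 2. Nuclear-encoded UMIs were thus lower 9.68-fold, 7.75-fold, 9.60-fold, 4.41-fold and 4.54-fold.

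Median mitochondrial UMIs were 949 against 855 in fresh 10x 1, 1005 against 989 in fresh 10x 2, 1055 against 883 in stored 10x, 2875 against 1592 in BD 1 and 2372 against 1142 in BD 2. The ratio of members to cells under 10% was 1.11, 1.02 and 1.19 in the 10x libraries and 1.81 and 2.08 in the BD Rhapsody libraries. On the log2 scale the mean difference over the 5 libraries was −2.76 (SD 0.564, n = 5) for nuclear-encoded UMIs and 0.47 (SD 0.457, n = 5) for mitochondrial UMIs. Set against epithelial cells at 10 to 20% instead, a choice made after seeing the data, the mitochondrial difference was −0.022 (SD 0.272) and the nuclear-encoded difference −2.27 (SD 0.228).

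**Figure D1:**
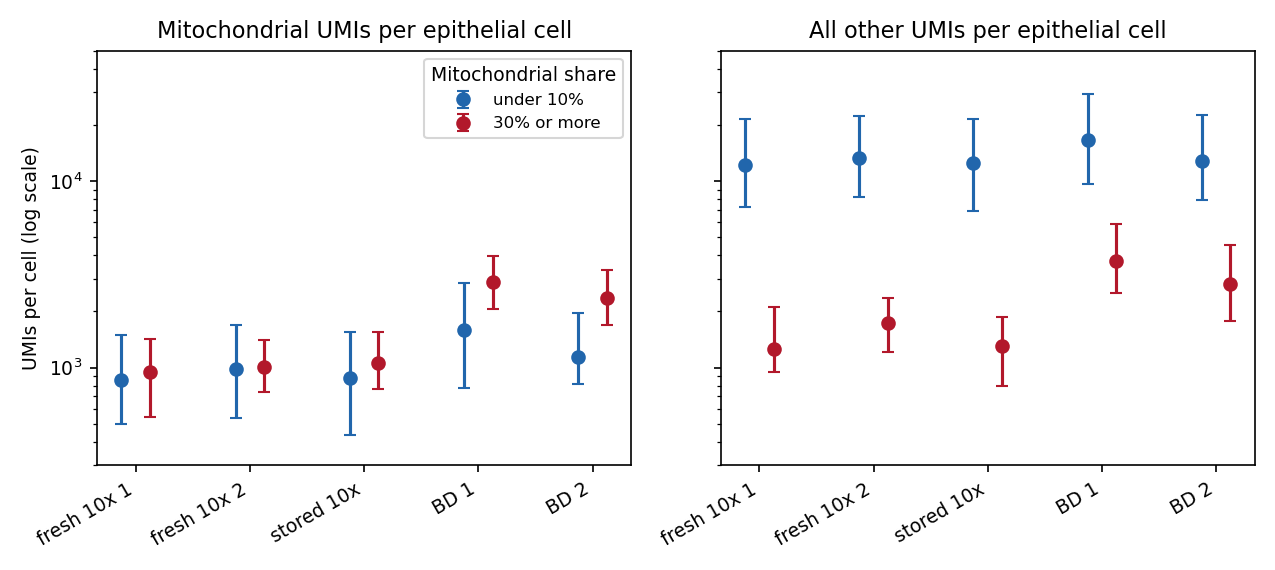
Median mitochondrial UMIs (left) and all other UMIs (right) per epithelial cell on a log scale, by library, for cells under 10% (blue) and cells with 30% or more (red) mitochondrial UMIs; bars span the quartiles of cells. The red and blue points lie close together for mitochondrial UMIs in the 10x libraries, and 4.41-fold to 9.68-fold apart for other UMIs.

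Transcript diversity was compared at equal depth. The number of genes expected in a draw of 500 non-mitochondrial UMIs was calculated for each cell that had at least 500. Members held a median of 367, 357, 365, 381 and 379 genes in the order above, and cells under 10% held 353, 355, 351, 386 and 384. The mean difference was 0.017 on the log2 scale (SD 0.038, n = 5; two-sided exact sign-flip permutation p = 0.4375, the smallest the design allows being 0.0625, so the test could not pass 0.05). Against depth-matched cells members held more genes in all 5 libraries (mean 0.037, SD 0.016; exact permutation p = 0.0625). Without that thinning, the medians were 819 against 3327 genes in fresh 10x 1 and 1727.5 against 4128.5 in BD 1.

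Many nuclear-encoded genes took a different share of the remaining transcriptome in members. In an edgeR quasi-likelihood fit on UMIs summed per library and class, with the library as a block and TMM scaling, 2758 of 10294 genes (26.8%) passed an adjusted p of 0.05. Of these, 1192 (11.6%) were higher and 1566 (15.2%) lower in members, 626 and 638 of them by at least 2-fold. The difference had one direction in all 5 libraries for 31.2% of genes tested, and for 1997 of the 2758 that passed (19.4% of genes tested). Without BD 2, the library with conflicting labels, 738 were higher and 1174 lower.

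The split depended on scaling. The median log2 difference of all genes was −0.08 with TMM and 0.12 with plain totals, under which 1668 genes were higher and 792 lower. Comparison cells under 10% were then limited to a range of non-mitochondrial UMIs set by the members, which left 57, 53, 301, 78 and 28 of them. These cells are called depth-matched, but their depth was only closer to that of members, not equal. Median non-mitochondrial UMIs were still lower in members in all 5 libraries. The mean log2 difference was −0.71 (SD 0.21, n = 5), against −2.76 without the limit. Only 4312 genes could be tested against the depth-matched cells, and 281 were higher and 119 lower. Results that ended under that limit are named below.

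The genes that define this group lie partly at 1 locus. Gm26917 (chromosome 17, 39843013 to 39846341, plus strand) and Gm42418 (chromosome 17, 39846958 to 39848788, plus strand) are annotated as long intergenic noncoding RNAs in GENCODE M21 on GRCm38. Gm42418 overlaps an annotated ribosomal RNA gene, CT010467.1 (39846353 to 39848827, minus strand), and AY036118 (39847113 to 39848035, minus strand) lies inside it on the opposite strand. The sources used here do not state whether the counting used strand, so reads of Gm42418 and AY036118 may not be told apart. Malat1, a nuclear speckle RNA, lies on chromosome 19 (5795690 to 5802672, minus strand), and Lars2, which encodes the mitochondrial leucyl-tRNA synthetase, on chromosome 9 (123366927 to 123462666, plus strand).

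Both assays capture RNA by its poly(A) tail with an oligo(dT) primer, which can also bind runs of A inside a transcript. The 30 bases around the longest run of A in the longest GENCODE M21 transcript of each of the 4 marker genes are shown for that reason, 5′ to 3′ with the run in capitals.
Malat1: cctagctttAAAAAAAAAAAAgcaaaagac
Gm42418: gcgtttactttgAAAAAAttagagtgttca
Lars2: tgttaacgtgggAAAAAAggcaaacatcag
Gm26917: tgcgtgcgaggggAAAAggttgccccgcga
The Malat1 run of 12 bases is matched or exceeded in 5.61% of 55341 annotated genes. A run of 6, as in Gm42418 and Lars2, is reached in 42.9%, and a run of 4, as in Gm26917, in 87.4%. No stretch of at least 16 bases in these 4 transcripts was identical to either mitochondrial ribosomal RNA on either strand, which held for all but 279 of 55304 annotated genes. These are descriptions of the reference transcripts, and priming at these runs was not tested.

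Gm26917 showed the largest increase among the genes named by the rule for named genes. It stood at 20.9, 69.1, 46.9, 10.1 and 9.61 UMIs per 10000 in members of fresh 10x 1, fresh 10x 2, stored 10x, BD 1 and BD 2, and at 0.784, 1.11, 1.15, 0.307 and 0.175 in cells under 10%. Every member value lay above every value of the other class. The log2 difference was 5.04 ± 0.32 (SE, edgeR adjusted p = 9.1e-09), and it was 4.79 in the 10x libraries alone and 5.24 in the BD Rhapsody libraries alone.

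Gm42418 was measured at 170, 198, 176, 48.6 and 47.3 UMIs per 10000 in members, against 7.37, 6.87, 12.4, 14.8 and 13.6. Members of the 10x libraries were highest, and every member value lay above every value of the other class. Its log2 difference was 3.04 ± 0.45 (SE, edgeR adjusted p = 0.00013). AY036118 followed at 13.7, 8.43, 1.56, 0.159 and 0.145 in members and 1.08, 0.814, 0.299, 0.0752 and 0.0993 in the others, a log2 difference of 2.09 (edgeR adjusted p = 0.00016).

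Lars2 stood at 6.45, 8.64, 8.20, 1.96 and 2.18 UMIs per 10000 in members against 0.25, 0.226, 0.358, 0.827 and 0.841. The difference was large in every 10x library and smaller in both BD Rhapsody libraries, where the cells under 10% already held more. Its log2 difference was 3.09 ± 0.45 (SE, edgeR adjusted p = 0.00012). Malat1 stood at 697, 635, 754, 117 and 146 in members against 101, 118, 187, 6.68 and 5.70, a log2 difference of 2.87 ± 0.53 (SE, edgeR adjusted p = 0.00090). These 4 markers were chosen with results of these libraries known, so their tests are not independent evidence. All 4 also passed against depth-matched cells, with log2 differences from 1.86 for Gm42418 to 4.25 for Gm26917.

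The markers varied among members. In stored 10x, the quartiles of Malat1 over the 231 members were 345 and 1032 UMIs per 10000 with a median of 655, and in cells under 10% they were 94.9 and 313 with a median of 189. In BD 2 the 714 members had a median of 124 and quartiles of 34.7 and 312, against 1.44 and 11.6 in cells under 10%. In both libraries the lower quartile of members lay above the upper quartile of the other class. Gm26917 was sparser, with a median of 17.5 and quartiles of 2.62 and 58.8 in members of stored 10x. Lars2 had a median of 0 in members of BD 1 and BD 2, against 0.669 and 0.525 in cells under 10%. Its upper quartiles there were 3.18 and 3.92 in members against 1.34 and 1.31. It was detected in 46.3% and 44.5% of those members and in 70% and 59.2% of cells under 10%, which held more UMIs.

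Nuclear noncoding RNAs were higher as a group. Of the 11 such RNAs tested, 9 were higher and 0 lower, where 11.6% and 15.2% of all genes were. Their median log2 difference was 1.63 against −0.08 for all genes. Neat1, the scaffold of paraspeckles, stood at 55.2, 40.8, 54.8, 9.01 and 8.88 UMIs per 10000 in members and 21.7, 15.4, 23.0, 1.58 and 1.09 in cells under 10% (log2 difference 1.58, edgeR adjusted p = 0.0030). Xist, which coats the inactive X chromosome, stood at 77.0, 59.5, 56.4, 14.6 and 15.6 against 17.4, 13, 12.4, 4.10 and 3.16 (1.82 ± 0.28 SE, adjusted p = 0.00016). Kcnq1ot1, an imprinted antisense RNA, had a log2 difference of 1.96 (adjusted p = 0.00094), and Tsix, the antisense partner of Xist, 1.72 (adjusted p = 0.00016), although Tsix and Xist overlap and their reads may not be separable without strand. Meg3 was also called (2.22, adjusted p = 0.017), but 34 of its UMIs came from the members of fresh 10x 1 and 0 from those of fresh 10x 2.

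**Figure D2:**
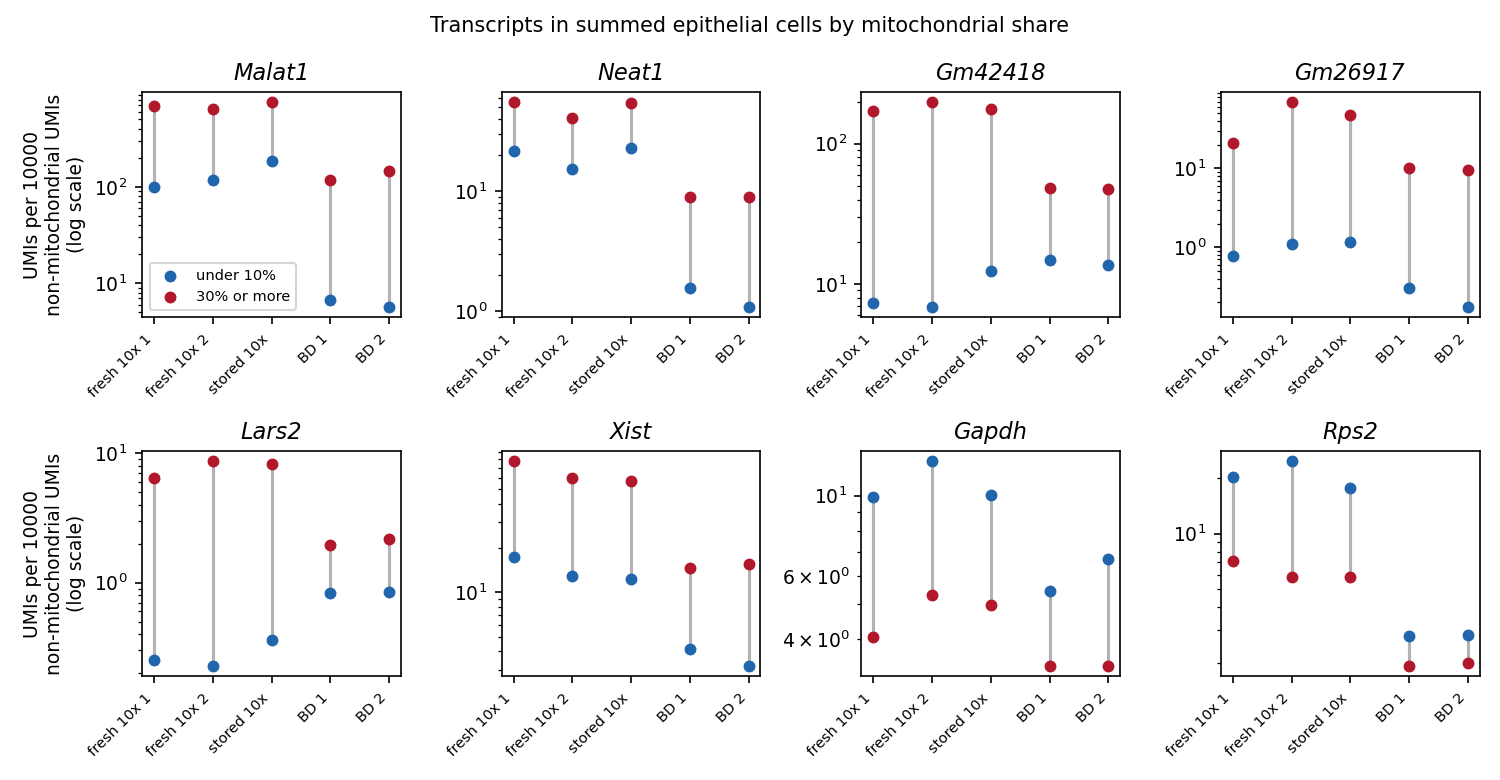
UMIs per 10000 non-mitochondrial UMIs (log scale) of 8 transcripts in summed epithelial cells of each library; blue points are cells under 10% mitochondrial UMIs and red points cells with 30% or more, joined by a line. Red lies above blue in all 5 libraries for Malat1, Neat1, Gm42418, Gm26917, Lars2 and Xist, and below it for Gapdh and Rps2.

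Messenger RNAs known for retained introns or nuclear speckle residence moved the same way. Of 18 tested, 15 were higher and 0 lower, where 11.6% and 15.2% of all genes were. Their median was 1.00. Pnisr, a splicing-related protein gene, stood at 6.45, 4.27, 3.69, 2.36 and 2.86 UMIs per 10000 in members against 0.912, 0.914, 0.903, 0.752 and 0.759 (log2 difference 1.80 ± 0.20 SE, edgeR adjusted p = 1.9e-05). Ccnl2, a cyclin of the splicing machinery, rose by 1.73 (adjusted p = 2.4e-05), Nktr by 1.27 (adjusted p = 0.00030) and Srrm2, a core speckle protein gene, by 1.19 (adjusted p = 0.00066). The kinase gene Clk1, whose transcript is a standard example of a detained intron, stood at 5.43, 4.58, 4.67, 3.44 and 3.87 against 1.59, 1.64, 1.60, 1.76 and 1.78 (adjusted p = 0.0010). Against depth-matched cells 14 of the 18 were higher. Ddx5 (−0.30, adjusted p = 0.37) and Srsf5 (0.39, adjusted p = 0.17) were among the 3 that did not pass.

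Other genes with large increases were weakly expressed. After the markers, the rule for named genes gave AI480526, Hist4h4, Muc4, Gm15675, Acrbp, Kcne3, Dmpk and Clca3a1, with log2 differences from 2.34 for Clca3a1 to 2.97 for AI480526. Clca3a1, a chloride channel regulator gene, stood at 1.02, 1.04, 0.656, 1.01 and 0.844 UMIs per 10000 in members against 0.103, 0.109, 0.106, 0.231 and 0.152 (2.34 ± 0.22 SE, edgeR adjusted p = 5.3e-06). Muc4, a membrane mucin gene, stood at 0.509, 1.56, 0.410, 0.389 and 0.203 against 0.0341, 0.0524, 0.0453, 0.124 and 0.0467 (2.65, adjusted p = 0.00011). Hist4h4, a histone gene, rested on 2, 2, 7, 12 and 19 UMIs in members.

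Abundant cytosolic messengers were lower. Of 22 tested, 12 were lower and 0 higher, where 15.2% and 11.6% of all genes were. Their median log2 difference was −0.82. Fth1, the ferritin heavy chain gene, stood at 31.7, 19.5, 20.1, 23.7 and 19.9 UMIs per 10000 in members and 74.5, 61.1, 59.1, 35.8 and 38.0 in cells under 10% (−1.5 ± 0.32 SE, edgeR adjusted p = 0.0026). Gapdh, a glycolytic enzyme gene, stood at 4.07, 5.31, 4.97, 3.37 and 3.38 against 9.91, 12.4, 10.0, 5.45 and 6.70 (−1.32, adjusted p = 0.00090). Cfl1, the actin-severing cofilin gene, fell by 1.15 (adjusted p = 0.0032) and Tuba1b, a tubulin gene, by 1.25 (adjusted p = 0.0013). Actb was 24.4, 25.7, 26.2, 31.3 and 31.3 in members against 25.9, 30, 24.5, 41.6 and 46.0 and did not pass (−0.55, adjusted p = 0.14). In the 10x libraries alone 21 of the 22 were lower and 0 higher, where 14.9% and 5.78% of all genes were. In BD Rhapsody alone 14 were lower and 5 higher, where 21.1% and 20.1% of all genes were. Against depth-matched cells 6 were lower.

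Nuclear-encoded genes of the respiratory chain, which work inside mitochondria but are translated in the cytosol, were lower in members. Of 77 tested, 39 were lower and 0 higher, where 15.2% and 11.6% of all genes were. The list's median was −0.67. Cox5a, a subunit of complex IV, stood at 1.02, 1.04, 1.53, 1.57 and 1.29 UMIs per 10000 in members against 4.02, 4.24, 4.21, 2.66 and 2.70 (−1.60 ± 0.26 SE, edgeR adjusted p = 0.00032). Cycs, the cytochrome c gene, fell by 1.53 (adjusted p = 0.00013), Atp5f1, an ATP synthase subunit gene, by 1.36 (adjusted p = 0.00071) and Uqcrfs1, the Rieske protein gene of complex III, by 1.30 (adjusted p = 0.00084). The 10x libraries alone gave 68 lower and 0 higher, where 14.9% and 5.78% of all genes were. BD Rhapsody alone gave 25 lower and 11 higher, where 21.1% and 20.1% of all genes were. With plain totals 25 of the 77 were lower, where 792 of 10294 genes were. Against depth-matched cells 2 of 75 were lower, where 119 of 4312 genes were.

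Cytosolic ribosomal protein genes differed between platforms. Of 80 tested, 30 were lower and 0 higher over all 5 libraries (median −0.75), where 15.2% and 11.6% of all genes were. In the 10x libraries alone 77 were lower and 0 higher (median −1.36), where 14.9% of all genes were lower and 5.78% higher (20.6% in all). In the BD Rhapsody libraries alone 18 were lower and 23 higher (median 0.015), where 21.1% and 20.1% of all genes were (41.2% in all). Together they made up 13.5%, 11.7% and 14.4% of non-mitochondrial UMIs in members of the 10x libraries and 22.2%, 22.4% and 23.8% in their cells under 10%. In BD 1 and BD 2 they made up 15.2% and 15.3% in members and 14.3% and 14.2% in cells under 10%.

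**Figure D3:**
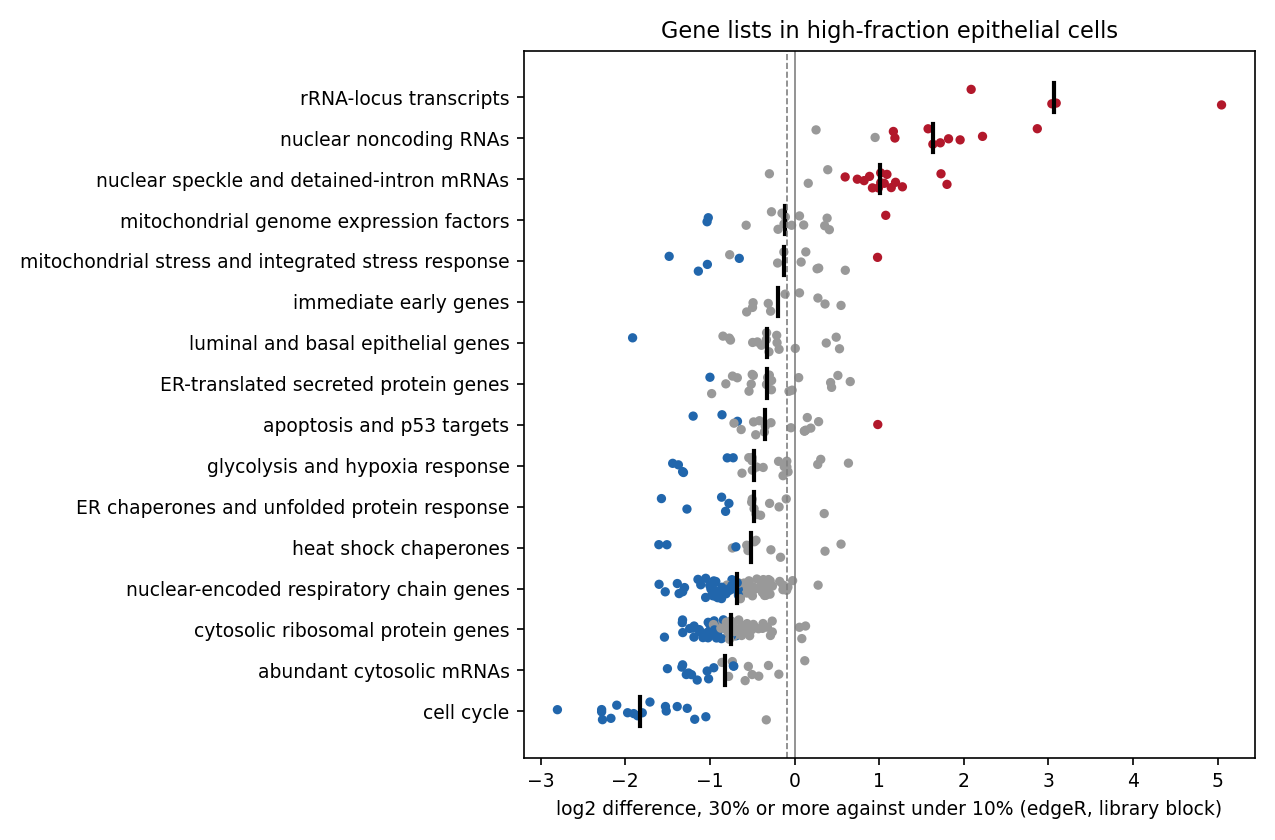
Log2 difference between epithelial cells with 30% or more and under 10% mitochondrial UMIs for each gene of 16 lists (edgeR, library as a block); red and blue points passed an adjusted p of 0.05 as higher and lower, grey points did not, and the black bar is the list's median. The dashed line is the median of all genes tested (−0.08), and the cell cycle list lies farthest to the left. Farthest to the right is the list labelled rRNA-locus transcripts, whose tested genes were Gm42418, Gm26917, AY036118 and Lars2. Lars2 lies outside that locus, and all but AY036118 are markers chosen with results of these libraries known.

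Rps2 and Rpl10 show the platform difference. Rps2 stood at 7.13, 5.83, 5.82, 1.92 and 1.99 UMIs per 10000 in members against 20.3, 24.6, 17.7, 2.78 and 2.84 (−1.54 ± 0.31 SE, edgeR adjusted p = 0.0016). Rpl10 stood at 10.4, 9.16, 6.83, 4.29 and 4.46 against 26.9, 27.6, 22.4, 4.70 and 5.52 (−1.33, adjusted p = 0.0062). Both were lower in all 5 libraries, by less in BD 1 and BD 2. In the test of the difference itself, 74 of the 80 genes passed, where 12.4% of all genes did, and with single libraries left out the number lower in the fit over all libraries ranged from 4 without fresh 10x 2 to 47 without BD 1 or BD 2.

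Among the lists, proliferation genes had the lowest median. Of 18 cell cycle genes, 17 were lower and 0 higher (median −1.83), where 15.2% and 11.6% of all genes were. Cdk1, the mitotic kinase gene, stood at 0.509, 0.104, 0.300, 0.318 and 0.418 UMIs per 10000 in members against 0.820, 0.870, 0.615, 1.85 and 1.54 (−2.10 ± 0.26 SE, edgeR adjusted p = 2.7e-05). Ccnb1, a mitotic cyclin gene, was lower by 2.80 (adjusted p = 1.9e-05) on 2, 0, 6, 14 and 33 member UMIs, so that it was higher in fresh 10x 1 alone (0.339 against 0.291). Birc5, the survivin gene, stood at 0.170, 0.208, 0.628, 0.366 and 0.699 against 1.37, 1.37, 0.991, 2.61 and 3.02 (−2.28, adjusted p = 3.3e-05). Mki67 did not pass (−0.33, adjusted p = 0.35).

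The largest decreases under the rule for named genes were those of Cdkn3, Nek2, Pimreg, Pbk, Kif20a, Pclaf, Plac8, Aurkb, Trip13 and Rrm2, beside Birc5 and Ccnb2 of the cell cycle list. Pclaf, a PCNA-binding factor gene, stood at 0.170, 0.104, 0.437, 0.236 and 0.547 UMIs per 10000 in members against 1.08, 1.46, 1.08, 2.19 and 2.24 (−2.55 ± 0.28 SE, edgeR adjusted p = 1.6e-05). Nek2, a centrosome kinase gene, had 0 UMIs in members of all 3 10x libraries, against 83, 142 and 209 in cells under 10%, so its fitted value is no fold change there. In BD 1 and BD 2 it stood at 0.0472 and 0.0352 against 0.289 and 0.385.

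The decrease in proliferation genes was not called against depth-matched cells. Cells under 10% had more UMIs in all. Against the depth-matched ones 8 of the 18 cell cycle genes could be tested, and 0 were lower and 1 was higher, with a median of −0.49. In that fit 119 of 4312 genes were lower and 281 higher, so 0 of 8 cannot show whether the decrease ended. Pclaf (−0.60, edgeR adjusted p = 0.31), Birc5 (−0.69, adjusted p = 0.23) and Cdk1 (−0.43, adjusted p = 0.48) did not pass there. Cycling cells hold more RNA, which is background, and its part in this difference was not tested. Against cells at 10 to 20%, 15 of the 18 were lower, where 1399 of 10402 genes were, with a median of −1.02.

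Genes translated at the endoplasmic reticulum went different ways on the platforms. The list held 22 secreted or membrane protein genes, including the milk protein genes of the luminal lineage. Of these, 1 was lower and 0 higher, where 15.2% and 11.6% of all genes were. The median was −0.32 (with plain totals 1 lower and 3 higher, where 792 and 1668 of 10294 genes were). In the 10x libraries alone 12 were lower and 0 higher (median −0.58), where 14.9% and 5.78% of all genes were. In BD Rhapsody alone 6 were lower and 9 higher (median 0.095), where 21.1% and 20.1% of all genes were. The interaction passed for 10, and for 12.4% of all genes. Csn3, the kappa-casein gene, stood at 67.7, 131, 87.9, 186 and 186 UMIs per 10000 in members against 143, 165, 165, 175 and 172 (−0.73, edgeR adjusted p = 0.18; interaction 1.29, adjusted p = 5.8e-05). Wfdc18, a whey acidic protein family gene, stood at 35.6, 77.6, 48.8, 152 and 102 against 57.6, 42.4, 97.5, 57.5 and 47.4 (0.05, adjusted p = 0.95; interaction 1.96, adjusted p = 1.4e-05). The member that passed was Csn1s2a, another casein gene, at 7.81, 7.29, 2.43, 9.28 and 4.89 against 6.76, 7.30, 10.1, 12.2 and 11.5 (−1.0, adjusted p = 0.019), and it did not pass against depth-matched cells (0.41, adjusted p = 0.58).

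Of 15 genes for chaperones of the endoplasmic reticulum, 5 were lower and 0 higher, where 15.2% and 11.6% of all genes were. The median was −0.48. Sdf2l1 was lower by 1.57 (edgeR adjusted p = 0.00019), Manf by 1.27 (adjusted p = 0.0023), Pdia6 by 0.86 (adjusted p = 0.0087) and Creld2 by 0.78 (adjusted p = 0.012). Against depth-matched cells 0 of 13 passed and the median was 0.24.

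Of 17 luminal and basal genes, 1 was lower and 0 higher, where 15.2% and 11.6% of all genes were. The median was −0.33 (with plain totals 1 lower and 3 higher, where 792 and 1668 of 10294 genes were). In the 10x libraries alone 9 were lower and 0 higher (median −0.74), where 14.9% and 5.78% of all genes were. In BD Rhapsody alone 3 were lower and 5 higher (median 0.12), where 21.1% and 20.1% of all genes were. The interaction passed for 6, and for 12.4% of all genes. The basal keratin gene Krt17 was the one that passed over all 5 libraries, on 0, 2, 0, 10 and 46 member UMIs (−1.91, edgeR adjusted p = 0.0017). The luminal progenitor gene Kit stood at 1.70, 1.77, 1.48, 1.31 and 1.26 UMIs per 10000 in members against 0.690, 0.788, 0.808, 0.874 and 1.03 and did not pass (0.49, adjusted p = 0.073).

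Stress genes were examined in 3 lists, to be read against 15.2% of all genes lower and 11.6% higher. Values with plain totals are to be read against 792 of 10294 genes lower and 1668 higher there, with a median of 0.12. Of 10 immediate early genes, 0 passed in either direction (median −0.20), although with plain totals 3 were higher (median 0.11), and Fos stood at 28, 54.6, 22.1, 27.8 and 30.1 UMIs per 10000 in members against 42.5, 44.4, 36.7, 33.4 and 30. Of 12 heat shock chaperone genes, 3 were lower and 0 higher: the mitochondrial chaperonin genes Hspd1 (−1.60, edgeR adjusted p = 0.00013) and Hspe1 (−1.51, adjusted p = 0.00089), and Dnaja1 (−0.69, adjusted p = 0.027). With plain totals 2 were lower and 2 higher, and against depth-matched cells 0 passed. Of 13 genes of the integrated and mitochondrial stress response, 4 were lower, the amino acid and one-carbon enzyme genes Psat1, Phgdh, Asns and Shmt2, and 1 was higher, Sesn2 (0.98, edgeR adjusted p = 0.042). The list's median was −0.13, and 0.10 with plain totals. The stress factor Atf4 stood at 3.22, 3.02, 4.18, 4.51 and 4.80 in members against 2.12, 2.16, 1.83, 3.85 and 3.92 and did not pass (0.27, adjusted p = 0.38).

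Among 19 apoptosis and p53 genes, 3 were lower and 1 higher, with a median of −0.35; over all genes 15.2% were lower and 11.6% higher. Bcl2, an inhibitor of apoptosis, stood at 1.70, 3.23, 1.5, 0.607 and 0.656 UMIs per 10000 in members against 0.435, 0.654, 0.572, 0.378 and 0.473 (0.98 ± 0.22 SE, edgeR adjusted p = 0.0035). The lower genes included the p53 target Ccng1 (−0.86, edgeR adjusted p = 0.010) and the pore-forming Bak1 (−0.67, adjusted p = 0.039). Against depth-matched cells 0 of the 12 genes of this list that could be tested passed. Of 22 genes of glycolysis and the hypoxia response, 6 were lower and 0 higher (median −0.47), Eno1 by 1.44 (adjusted p = 0.00018) and Pgk1 by 1.37 (adjusted p = 0.0011).

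Nuclear genes that maintain or express the mitochondrial genome showed no common direction. Of 15 tested, 2 were lower and 1 higher, where 15.2% and 11.6% of all genes were. The median was −0.11, and 0.12 with plain totals, where that of all genes was also 0.12. Tfam, which packages mitochondrial DNA, was lower (−1.02 ± 0.25 SE, edgeR adjusted p = 0.0061), and so was Tfb2m, a mitochondrial transcription factor gene (−1.03, adjusted p = 0.0091). Polg, the mitochondrial DNA polymerase gene, was higher, at 0.509, 0.521, 0.492, 0.413 and 0.449 UMIs per 10000 in members against 0.137, 0.142, 0.163, 0.246 and 0.175 (1.08 ± 0.24 SE, adjusted p = 0.0029).

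How the mitochondrial UMIs divided among the 13 protein-coding genes was not part of the rule. Of the 13, 1 passed (7.69%), mt-Nd3, a subunit of complex I. It held 0.520%, 0.492%, 1.40%, 4.44% and 4.22% of mitochondrial UMIs in members and 0.536%, 0.604%, 1.57%, 5.11% and 4.83% in cells under 10%, lower in all 5 libraries (−0.18 ± 0.04 SE on the log2 scale, edgeR adjusted p = 0.030). That call was lost without fresh 10x 2, without BD 1 and without BD 2. mt-Nd1 was lower in all 5 libraries as well but did not pass (−0.14, adjusted p = 0.066). In the BD Rhapsody libraries alone, with 1 residual degree of freedom, 7 of the 13 passed, and in the 10x libraries alone 1 did, mt-Atp8 (−0.27, edgeR adjusted p = 0.035). Some genes had opposite signs on the platforms: mt-Nd4l stood at 0.30 in BD Rhapsody and −0.18 in 10x, mt-Nd5 at 0.21 and −0.15, and mt-Atp8 at 0.15 and −0.27. The difference between platforms was not tested for these genes. The abundant mt-Atp6 held 25.7%, 24.7%, 22.5%, 10.6% and 10.9% in members against 25.7%, 25.3%, 21.7%, 11% and 11.3%. Levels also differed between platforms: mt-Co3 held 22.6%, 23.0% and 20.1% in members of the 10x libraries and 7.32% and 6.36% in those of BD 1 and BD 2.

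Across the range of mitochondrial share, Malat1 was higher in successive bins from 5 to 10% up to 40 to 50% in every library. Malat1 in BD 1 stood at 10.7 UMIs per 10000 in cells at 10 to 20%, 28.6 at 20 to 30%, 79.5 at 30 to 40%, 142 at 40 to 50% and 247 above 50%. In BD 2 it stood at 9.01, 26.2, 81.6, 176 and 352, and the step across 30% was the largest of these steps by ratio in both BD Rhapsody libraries. In fresh 10x 2 it stood at 165, 342, 573, 904 and 961 in the same bins. In stored 10x it was 318, 659, 759 and 902, and then lower, at 538, in the 80 cells above 50%. The bins above 50% held 4 and 5 cells in the fresh 10x libraries.

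Ribosomal protein transcripts showed the platform difference along the same axis. In BD 1 they made up 14.2% of non-mitochondrial UMIs at 5 to 10% mitochondrial share, 17.6% at 20 to 30%, 16.1% at 30 to 40% and 11.4% above 50%. In BD 2 they made up 14.1%, 18.2%, 16.9% and 10.3%. In stored 10x the same bins held 24.1%, 18.1%, 15.7% and 11.7%. The BD Rhapsody libraries thus had their highest value at 20 to 30%, outside both classes compared, and the values above 50% in BD 1, BD 2 and stored 10x lay within 10.3 to 11.7%. Median mitochondrial UMIs in BD 1 were 2394 at 10 to 20%, 2586 at 30 to 40% and 3418 above 50%.

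**Figure D4:**
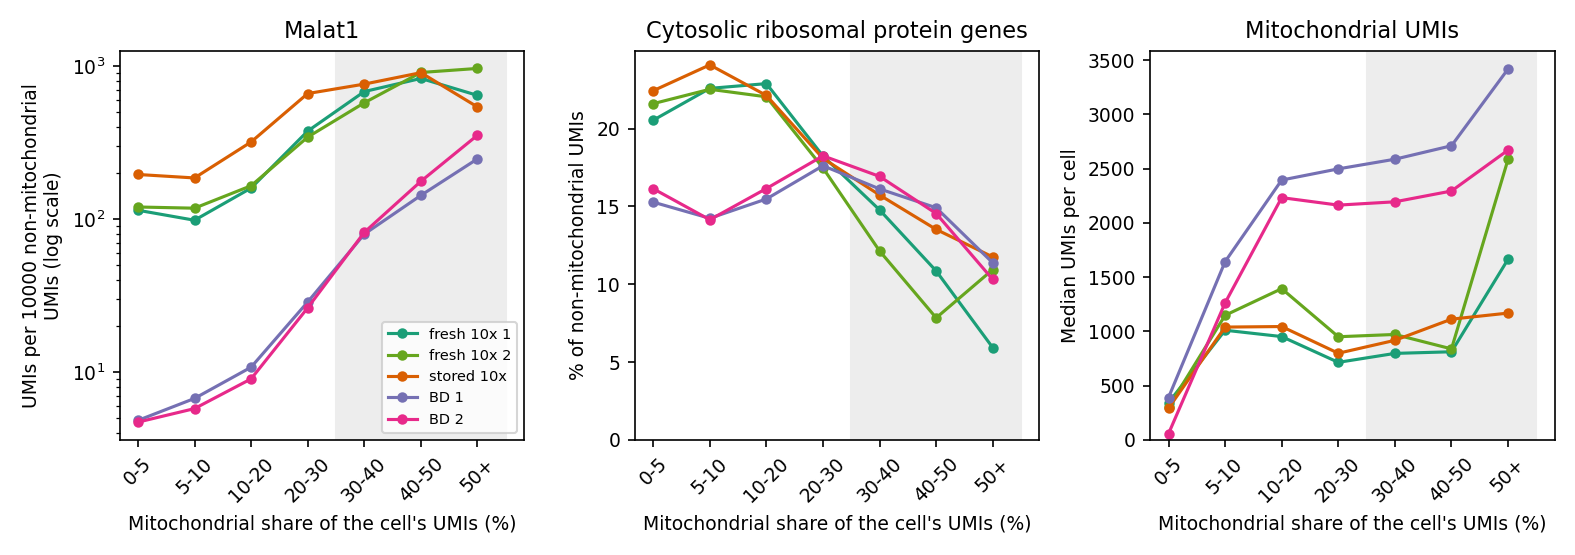
Epithelial cells binned by mitochondrial share (x axis, %; members shaded), by library: Malat1 in UMIs per 10000 non-mitochondrial UMIs on a log scale (left), ribosomal protein genes as a percentage of non-mitochondrial UMIs (middle), and the median mitochondrial UMIs per cell (right). Malat1 climbs in every library from 5 to 10% up to 40 to 50%, whereas ribosomal protein genes peak at 20 to 30% in BD 1 and BD 2 and decline from lower shares in the 10x libraries.

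The length of a gene's transcript separated the calls. GENCODE M21 matched 10262 of the 10294 genes by symbol. Protein-coding genes were divided by length into 5 bins of equal number. In the shortest bin, with longest transcripts of 374 to 1993 bases, 2.43% were higher and 29.0% lower in members. In the longest bin, from 5362 bases, 21.9% were higher and 4.90% lower. Divided likewise by GC content, 6.44% were higher and 22.2% lower in the lowest bin, and 20.6% and 6.98% in the highest. From the lowest to the highest GC bin, median log2 differences were −0.27, −0.18, −0.03, 0.12 and 0.34 in the BD Rhapsody libraries alone. In the 10x libraries alone they were −0.19, −0.22, −0.20, −0.22 and −0.06. Of 93 long intergenic noncoding RNAs, 28 were higher and 4 lower. Short transcripts include many ribosomal protein and respiratory chain genes, so these groups are not separate observations. The median log2 difference of the shortest transcripts was −1.0 in the 10x libraries and −0.07 in the BD Rhapsody libraries.

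**Figure D5:**
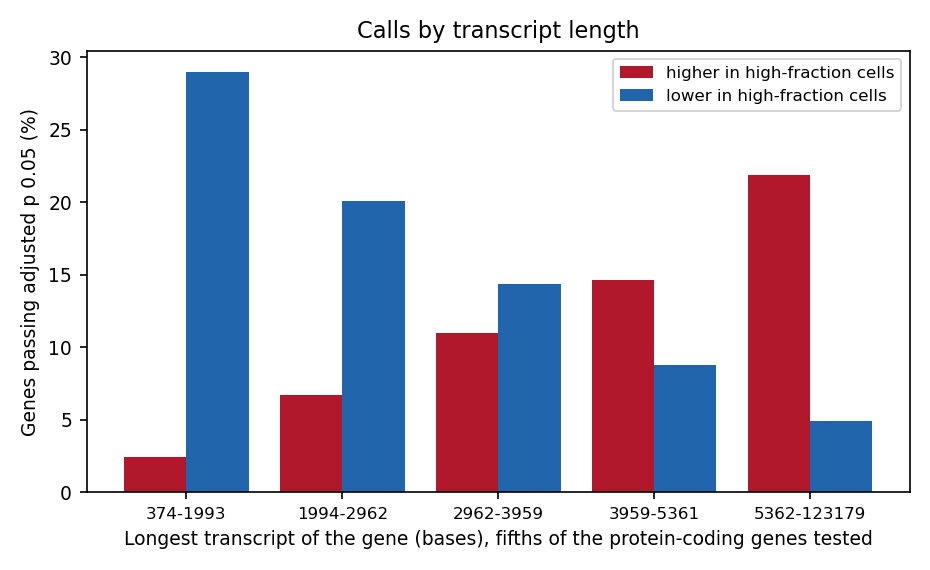
Share of protein-coding genes that were higher (red) or lower (blue) in members at an adjusted p of 0.05, in 5 bins by length of the longest annotated transcript (x axis, bases). The share lower declines from 29.0% to 4.90% and the share higher climbs from 2.43% to 21.9% with length.

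The difference between members and cells under 10% itself differed between platforms for 1274 genes (12.4%) in an edgeR interaction test, 940 (9.13%) with a higher difference in BD Rhapsody and 334 (3.24%) with a lower one. Without BD 2 this number was 282, without BD 1 352, without stored 10x 606, and with DESeq2 621. With plain totals the split turned to 415 against 1057. Among the markers, Malat1 differed more in BD Rhapsody (interaction 2.41 ± 0.21 SE, adjusted p = 6.2e-11) and Lars2 and Gm42418 more in 10x (−3.08 ± 0.25 SE, adjusted p = 2.5e-11, and −2.22 ± 0.23 SE, adjusted p = 8.9e-09). Malat1 in cells under 10% ranged from 5.70 to 187 UMIs per 10000 over the libraries and in members from 117 to 754. Kcnq1ot1 (2.32, adjusted p = 5.4e-07) and Neat1 (1.84, adjusted p = 2.7e-07) also differed more in BD Rhapsody, while for Gm26917 (0.36, adjusted p = 0.47) and Xist (0.31, adjusted p = 0.40) the interaction did not pass.

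Genes with the largest interaction were absent from members in 10x. Vps51, a vesicle tethering gene, had 0 UMIs in members of all 3 10x libraries and 509, 465 and 728 in cells under 10%. That made it at least 3.75-fold lower, taking 3 UMIs over the 3 libraries as the floor. In BD 1 and BD 2 it stood at 0.118 and 0.0977 UMIs per 10000 in members against 0.120 and 0.0817. Gstp1, Prelid2, Rpl9-ps6 and 1810044D09Rik likewise had 0 UMIs in 10x members and were at least 4.20-fold, 3.89-fold, 2.69-fold and 1.28-fold lower there. Rpl9-ps6 is a ribosomal protein pseudogene, and its reads may belong to its parent gene.

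At the other end were Mmp3, Igkc, Mpeg1, Ptprc and H2-Ab1, all but Mmp3 being genes of leukocytes. Igkc, an immunoglobulin gene, had 0, 0 and 26 UMIs in members of the 10x libraries and 113 and 102 in those of BD 1 and BD 2, against 2, 1, 431, 5390 and 51 in cells under 10%. H2-Ab1, of antigen-presenting cells, had 0, 1, 53, 101 and 88 UMIs in members and 153, 644, 718, 440 and 605 in cells under 10%. Their 10x values rested mainly on stored 10x, and without it the interaction of Igkc was 0.042 and that of H2-Ab1 0.24.

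Stored and fresh 10x members could be compared only on small sums. The 36 and 45 fresh members held 58927 and 96039 non-mitochondrial UMIs, and the 231 stored members 366065. In an edgeR interaction test 12 genes (0.117%) passed, 2 with a higher and 10 with a lower difference after storage, 672 genes having an unadjusted p under 0.05, and DESeq2 called 0. Stored 10x is 1 library, and the test assumes that it varies like the other groups (2 residual degrees of freedom). Spp1, the osteopontin gene, stood at 131 and 83.3 UMIs per 10000 in fresh members against 135 and 91.1 in cells under 10%, and at 37.9 against 98.6 after storage (interaction −1.24 ± 0.21 SE, adjusted p = 0.0036). Csn1s2a stood at 7.81 and 7.29 against 6.76 and 7.30 in fresh libraries and at 2.43 against 10.1 after storage (−2.11 ± 0.32 SE, adjusted p = 0.00040). With members taken at 40% or more, 163 genes passed, and Spp1 and Csn1s2a turned to 1.36 and 1.90. Malat1 (−0.55, adjusted p = 0.60), Gm42418 (−0.81, adjusted p = 0.22) and Lars2 (−0.46, adjusted p = 0.84) did not pass, which does not show that stored and fresh members were alike in them.

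Cells below the epithelial gate with at least 30% mitochondrial UMIs held the same marker transcripts at high levels. These were 12, 13, 119, 228 and 380 cells in fresh 10x 1, fresh 10x 2, stored 10x, BD 1 and BD 2. Malat1 stood at 1411, 1029, 696, 238 and 224 UMIs per 10000 in them and at 179, 216, 307, 10.2 and 10.3 in cells below the gate with under 10%. Gm42418 stood at 249, 181, 248, 88.2 and 67.8 against 14.8, 13.3, 21.4, 15.8 and 13.7. Gm26917 stood at 58.8, 6.05, 34.4, 55.9 and 18.4 against 0.799, 0.911, 0.960, 0.415 and 0.406. These transcripts were higher at a high mitochondrial share in all 5 libraries, without a test. The gate counts mitochondrial UMIs in its total, and the cells it left out were not free of its genes. Per 10000 non-mitochondrial UMIs, Krt8, Krt18 and Epcam stood at 5.13, 2.63 and 8.18 in those of BD 1 and at 2.32, 2.76 and 6.07 in those of BD 2, against 0.380, 0.164 and 0.547 and 0.179, 0.113 and 0.497 in cells below the gate with under 10%.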

How the data were processed

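Single-cell libraries of dissociated PyMT mammary tumour were analysed from the deposited matrices, which hold raw UMI counts for each gene in each cell barcode that the authors kept. The submitters' processing notes name Cell Ranger 3.0.1 and the mm10 genome. The labels name no counting program for the BD Rhapsody matrices, and no annotation for either platform. Total counts were 29166129, 30027178, 53381382, 59957945 and 49966022 UMIs in fresh 10x 1, fresh 10x 2, stored 10x, BD 1 and BD 2. Binomial intervals are exact (Clopper-Pearson, 95%) and cover counting error only.

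Members, marker genes and gene lists were chosen with earlier results of these data known. Raw counts of nuclear-encoded genes were summed per library and class, giving 10 sums, and tested with edgeR 4.0.16 (quasi-likelihood test, TMM, filterByExpr with a minimum count of 10, library as a block, Benjamini-Hochberg adjustment) in R 4.3.3. The block pairs both classes of cells from 1 library. Interaction terms tested platform and storage. Mitochondrial genes were fitted apart, with their own sum as library size. Genes were named as the 12 with the largest and the 12 with the smallest log2 difference among those that passed, had at least 100 UMIs over the 10 sums and moved one way in all 5 libraries, with up to 4 genes of lowest p per list and 5 per direction of each interaction. Other list genes were named after their values were seen. Lists are described by counts and medians, without a set test.

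The planned permutation test of mitochondrial and other UMIs per cell is not printed, since the rule uses both. Depth-matched comparison cells had non-mitochondrial UMIs between the 5th and 95th percentiles of the members of their library. Alternatives were DESeq2 1.42.0, other scalings, no filter, a 40% threshold, a gate on nuclear-encoded UMIs, at least 500 such UMIs, the pooled fresh 10x matrix, 5 transcripts left out of totals, no block and each library left out. Added after seeing the data were comparison cells at 10 to 20%, each platform alone and 1 floor on total UMIs. The edgeR fit was tested on simulated counts with a dispersion set at 0.05 and the same gene profile in both classes apart from the changed genes. Of 100 genes changed 2-fold between the classes it recovered 61%, and of 100 changed 4-fold 100% (10203 genes). Of its 166 calls, 5 were false. For the platform interaction the figures were 1% and 45% (10200 genes), with 1 false of 47 calls. Changed genes were drawn from the more abundant ones, so these rates need not hold for the fits above. Python 3.11.15, numpy 2.4.6, scipy 1.17.1, pandas 2.3.3 and matplotlib 3.10.9 were used.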

Additional observations from a re-analysis of the deposited data

Results flagged for a closer look

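The difference between high-fraction and low-fraction epithelial cells itself differed between BD Rhapsody and 10x, by the edgeR interaction test, for 15 of the genes named. Malat1 (adjusted p = 6.24e-11) and Kcne3 (adjusted p = 0.0200) had the larger difference in BD Rhapsody. Lars2 (adjusted p = 2.55e-11), Gm42418 (adjusted p = 8.91e-09) and Muc4 (adjusted p = 0.0236) had the larger difference in 10x. Kcne3 rested on 1, 2 and 2 member UMIs in the 10x libraries.

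Vps51 (adjusted p = 0.00221), 1810044D09Rik (adjusted p = 0.00584), Prelid2 (adjusted p = 0.00619), Gstp1 (adjusted p = 0.00710) and Rpl9-ps6 (adjusted p = 0.00713) had 0 UMIs in all 10x members, so no fold is given for them beyond the bounds above. In the opposite direction were Mmp3 (edgeR adjusted p = 2.63e-05), H2-Ab1 (adjusted p = 4.76e-05), Igkc (adjusted p = 0.000467), Ptprc (adjusted p = 0.00105) and Mpeg1 (adjusted p = 0.00156). Mpeg1 had 0, 0, 8, 8 and 16 UMIs in members of fresh 10x 1, fresh 10x 2, stored 10x, BD 1 and BD 2, and Ptprc 0, 6, 5, 7 and 12.

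Between stored and fresh 10x, the difference itself was larger after storage for Cd74 (edgeR adjusted p = 0.0406) and Kcnn4 (adjusted p = 0.0393). Cd74, of antigen-presenting cells, had 2 and 3 UMIs in fresh members and 155 in stored ones. The difference was smaller or more negative after storage for Csn1s2a (adjusted p = 0.000398), Spp1 (adjusted p = 0.00364), Ifi27l2a (adjusted p = 0.00541), Mfge8 (adjusted p = 0.00868), Angptl4 (adjusted p = 0.0175), and Cd14, Meg3 and Slpi (adjusted p = 0.0406 each). Ifi27l2a had 1 and 61 UMIs in the fresh members, and Slpi 22 and 2, so most of the UMIs came from 1 fresh library. All of these comparisons have 1 stored library.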

How the results depend on the processing

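Of 72 named genes that passed between high-fraction and low-fraction cells, 21 kept direction and call under every alternative in which they could be tested. Another 45 lost the call under at least 1, and 6 changed sign under at least 1. Alternatives that left a gene untested, most often the depth-matched cells, were not counted for it. The cause of these changes was not tested. The 2758 calls became 400 against depth-matched cells, 4449 in BD Rhapsody alone and 1793 without the library block that pairs the classes, where 1 of 11 nuclear noncoding RNAs still passed; leaving out 1 library gave 1912 to 2781.

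The 1274 platform calls became 621 with DESeq2, 298 at a 40% threshold, 514 against depth-matched cells and 784 against cells at 10 to 20%, and ranged from 282 to 1682 with 1 library left out. The 12 storage calls became 22 with DESeq2's size factors, 52 with plain totals, 0 with DESeq2 (edgeR: 672 genes at an unadjusted p under 0.05), 40 with no filter, 163 at 40%, 0 against depth-matched cells, 41 with the gate on other UMIs, 53 with at least 500 other UMIs and 6 with 5 transcripts left out. They ranged from 12 to 103 with 1 library left out; without stored 10x the fit cannot be made. The 1 call among mitochondrial genes became 2 at 40%, 2 with the pooled matrix, 0 without the block, 0 against cells at 10 to 20% and 7 in BD Rhapsody alone, and 0 to 1 with 1 library left out.

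The stored 10x excess in member share was 3.59 points at 40%, 5.58 with the gate on other UMIs, 3.76 with at least 500 other UMIs, 5.36 with the pooled matrix and 1.94 with 1 floor. That of BD 1 was 5.92, 13.8 and 11.5 for the first, second and pooled settings, and 11.8 with 1 floor. Mitochondrial UMIs per cell turned to −0.022 against cells at 10 to 20%.

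Signs turned against depth-matched cells for Csn1s2a (0.41), Pdia6 (0.26), Psat1 (0.23), Shmt2 (0.21) and the median of the reticulum chaperones (0.24). Col1a2 was −0.88 in BD Rhapsody alone, Notch3 and the median of the mural markers −0.26 in 10x alone, and that median ranged from −0.35 without BD 1 to 0.90 without stored 10x. S100a8 was 0.060 and Igkc 1.38 against cells at 10 to 20%, and Igkc ranged from −1.90 without stored 10x to 1.22 without BD 1. The stress response median was 0.10 with plain totals, 0.084 depth-matched, 0.093 in 10x alone, 0.0019 without BD 2, and ranged from −0.27 without stored 10x to 0.10 without BD 1. The ribosomal median was 0.015 in BD Rhapsody alone. With 1 library left out the platform interaction ranged from −6.03 to 0.042 for Igkc, −4.62 to 5.06 for Mpeg1 and −4.93 to 0.24 for H2-Ab1, the highest in each case without stored 10x. At 40% the storage interaction was 1.90 for Csn1s2a, 1.36 for Spp1, 0.014 for Mfge8, 0.46 for Cd14, 0.98 for Ifi27l2a and 10.36 for Slpi. For Cd74 it was −0.33 depth-matched, for Ifi27l2a −4.43 without fresh 10x 1 and 0.13 without fresh 10x 2, and for Meg3 −4.97 without fresh 10x 2 and 9.15 without fresh 10x 1. The small sums of the fresh members limit these last values most.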
